A study of Mus musculus with 9 samples.

Results

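Unedited 4T1 cells, labelled WT, were profiled by total RNA-seq in 3 of the 9 samples of the series, and all 3 are described here gene by gene with no contrast against the other 6. 4T1 is a mouse mammary carcinoma line of BALB/c background. The other 6 samples come from 2 Nat10 knockout lines, c19 and c43, with 3 samples each. Each WT sample is a separate biological replicate of the same line, plated at 300000 cells in a 6 cm dish and lysed 48 h later, with no treatment and with serum, glutamine and antibiotics in the medium. No day, passage or batch is named in the labels. RNA was treated with DNase and sequenced as stranded libraries after removal of ribosomal RNA, so transcripts without a poly(A) tail, such as replication-dependent histone mRNAs, were also captured.

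The mammary epithelium consists of inner luminal cells, marked by keratins 8 and 18, and outer basal or myoepithelial cells, marked by keratins 5 and 14, Trp63 and smooth muscle proteins. Carcinoma cells can combine epithelial adhesion genes with vimentin, fibronectin and factors of the Snail, Twist and Zeb families, a pattern known as a mixed epithelial and mesenchymal state. 4T1 cells are widely used because they spread from the mammary fat pad to distant organs of immune-competent mice and draw neutrophils and other myeloid cells through secreted factors.

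The deposited values were gene counts scaled by 1 factor per library. They summed to 50123222, 49149479 and 48554539 in replicates 1, 2 and 3, which corresponds to an estimated 55551245, 44282400 and 44310077 reads assigned to genes. Levels were compared between genes after division by exonic length, on a scale where 13755 protein-coding genes sum to 1000000 in each library. This quantity is given as TPM, the usual transcript scale restricted to coding genes, and values are mean ± SD over the 3 libraries unless each library is given in the order of replicates 1, 2 and 3. For a coding gene of median length, 3 reads correspond to 0.0513 to 0.0633 TPM, and levels under that floor rest on almost no reads. The floor is higher for shorter genes, such as 0.254 TPM for Lgals1 with 800 exonic bases. The table lists no gene that is near 0 in all 9 samples, because the lowest sum over its 9 columns is 8.98. Shares of expressed genes are therefore shares of the genes listed. Genes called not analysed had no row with an exonic length, so they have no level here. Nat10, the RNA acetyltransferase removed in the other lines, stood at 101, 102 and 102 TPM in the WT libraries.

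Of the 13755 coding genes, 10825 reached a mean level of 1 TPM, which is 78.7% and is called expressed here. Counts of 8356 genes (60.7%) at 10 TPM, 1851 genes (13.5%) at 100 TPM and 120 genes (0.872%) at 1000 TPM describe the upper part of the range. The median coding gene stood at 18.1 TPM, and 65 genes were listed at 0 in all 3 libraries. RNA was concentrated in few genes: the 10 most abundant coding genes held 10.2 ± 0.481% of the summed level, the top 100 held 30.7 ± 0.432% and the top 1000 held 62.8 ± 0.182%.

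The most abundant coding transcripts came from mitochondria, the cytoskeleton and translation. Actb, cytoplasmic beta-actin, stood at 13536, 13855 and 13456 TPM and Eef1a1, the translation elongation factor that delivers aminoacyl-tRNA to the ribosome, at 12680.2, 13105 and 13182. Lgals1, the secreted galactose-binding lectin galectin-1, was the fifth most abundant coding gene at 10592, 10579 and 11095 TPM. The 3 libraries lay within a few percent of each other for all these genes. Among the other top 20 genes were Ptma, a small acidic nuclear protein, at 5476 ± 65.2, Hsp90ab1, a cytosolic chaperone, at 4411 ± 71.5, Pabpc1, the cytoplasmic poly(A)-binding protein, at 4339 ± 53.9, and Pkm, pyruvate kinase, at 3769 ± 105 TPM. The highest coding entry, mt-Atp8 at 16909 ± 2088 TPM, overlaps mt-Atp6 on the mitochondrial genome, and Gm2000, at 5438 ± 102, is a predicted gene, so both values depend on how shared reads were assigned.

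By family, 13 mRNAs of the mitochondrial genome made up 7.62 ± 0.914% of the summed level of coding genes, 89 ribosomal protein genes made up 7.24 ± 0.132% and 74 histone genes made up 6.88 ± 0.296%. The mitochondrial share was 8.67%, 7.06% and 7.13% in replicates 1, 2 and 3, so replicate 1 stood above the other two. Histone shares were 6.54%, 7.05% and 7.05%, with replicate 1 the lowest. The histone genes H2ac18 and H3c15 reached 4462 ± 256 and 4418 ± 183 TPM. Histone clusters hold near-identical copies, and their single-gene values are uncertain for that reason.

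By annotated biotype, protein-coding genes took 82.7%, 84.1% and 84.8% of the normalized counts of the 3 libraries. Processed pseudogenes, which are intronless copies of mRNAs, took 5.75 ± 0.121% over 3530 genes; reads of their parent genes can be counted there. The remaining 18S ribosomal RNA, Rn18s, varied most in absolute terms, at 4.40%, 2.96% and 2.06%. The signal recognition particle RNA genes, whose product targets nascent secretory proteins to the endoplasmic reticulum, took 1.60 ± 0.0599%, and 7SK RNA genes, whose product holds the elongation factor P-TEFb inactive, took 1.04 ± 0.0534%. Long noncoding RNAs were numerous and low, with 2972 genes in 0.939 ± 0.00635% of counts. Small nuclear RNAs took 0.193 ± 0.00449% and small nucleolar RNAs 0.0659 ± 0.00601%.

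Promoter sequence could be matched to level for 8624 coding genes with a single annotated start, using the 250 bases before the start in RefSeq sequence of build GRCm38.p6. CpG dinucleotides, the sites of DNA methylation in mammals, numbered a median of 6 in genes under 0.1 TPM and 7 between 0.1 and 1. The median was 14 between 1 and 10 TPM, 18 between 10 and 100 and 19 between 100 and 1000. It was 12 in the 68 genes at 1000 TPM and over, so the count did not go up through the whole range. Over every single-start promoter in the RefSeq table, 22855 in all, the median was 5. The letters TATAAA, searched on both strands, occurred in 12.6% of promoters under 0.1 TPM, in 4.99% between 10 and 100 and in 27.9% at 1000 and over, against 7.10% of the matched promoters and 13.6% of all single-start promoters. In the highest band the motif was in 13 of 25 histone genes (52%) and in 6 of the 43 other genes (14.0%). These are descriptions across genes of 1 cell line, and a match of letters is not a binding site.

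**Figure D1:**
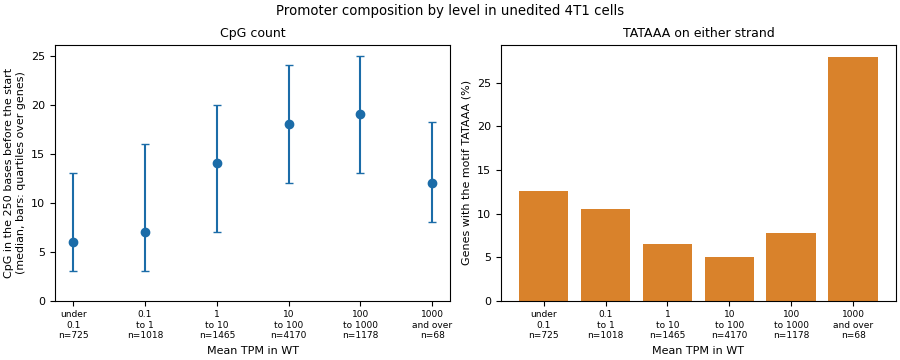
Left, number of CpG dinucleotides in the 250 bases before the annotated start (points, median; bars, lower and upper quartile over genes); right, percentage of the same promoters with TATAAA on either strand, both against the mean TPM in WT, with the number of genes under each band. The median CpG number is 6 in the lowest band, 19 between 100 and 1000 TPM and 12 in the highest band, and TATAAA is at 27.9% in the highest band.

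Keratins and junction genes of luminal epithelium stood at high levels in 4T1 cells. Of 36 listed genes, 30 had a row and 26 of these (86.7%) reached 1 TPM, against 78.7% of all coding genes. The list's median was 51.8 TPM, at percentile 74.1 of coding genes. Krt18, a type I keratin of simple epithelia, stood at 1199, 1288 and 1324 TPM, with replicate 1 the lowest. Its partner Krt8 stood at 769, 823 and 808, below Krt18 in every library, by a log2 ratio of -0.67 ± 0.04. Krt7, another keratin of simple epithelia, stood at 572 ± 31.99 and Krt19 at 194 ± 6.27 TPM.

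Adhesion and junction genes followed the keratins. Cdh1, which encodes E-cadherin of adherens junctions, stood at 356, 366 and 365 TPM and Epcam, an epithelial adhesion molecule, at 181, 195 and 195. The libraries of each gene were close together and the genes' ranges did not overlap. The tight junction claudins Cldn4, Cldn3 and Cldn7 stood at 308 ± 36.8, 179 ± 14.7 and 119 ± 7.45 TPM. Cd24a, a surface glycoprotein used to sort mammary epithelial cells, stood at 786 ± 35.5, and Wfdc2, a secreted protein with a whey acidic protein domain, at 782 ± 30.3. Krt8, Cd24a and Wfdc2 followed each other in the order of levels with overlapping ranges.

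Among the transcription factors of the luminal lineage, levels spanned several orders of magnitude. Gata3, needed for luminal differentiation, stood at 181, 179.5 and 174 TPM, in the upper part of the list. Esr1, which encodes oestrogen receptor alpha, stood at 4.88, 4.99 and 5.13 and Foxa1, its pioneer factor, at 2.14, 2.51 and 2.36. Elf5, which drives the milk-secreting alveolar fate, had 0, 0.051 and 0.0253 TPM, all under its floor of 0.0764, and Ehf stood at 0.0647 ± 0.0326. The epithelial splicing factors Esrp1 and Esrp2 stood at 67.4 ± 2.41 and 38.3 ± 1.28 TPM, and Esrp1 was higher by 0.81 ± 0.03 on the log2 scale, an order that depends on the length used, as given in the closing section. Milk protein genes were almost silent: of 16 listed, 6 had a row and 1 (16.7%) reached 1 TPM, beside 78.7% of all coding genes. That gene was Mfge8, a milk fat globule protein, at 98.9 ± 5.55. Csn3, kappa-casein, stood at 0.0847 ± 0.0362 and Wap, whey acidic protein, at 0.0743 ± 0.0654 TPM.

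Basal and myoepithelial genes were for the most part low, with a few at high levels. Of 32 listed genes, 25 had a row and 10 of these (40%) reached 1 TPM, beside 78.7% of all coding genes, and the median was 0.457, at percentile 17.0. Krt14, a type I keratin of basal cells, was in the expressed set at 187, 179 and 169.8 TPM, at 0.141 ± 0.0141 of the Krt18 level. Procr, a marker of mammary stem-like basal cells in the mouse, stood at 188, 187 and 192, and the ranges of Procr and Krt14 overlapped. Genes of the hemidesmosome, which attaches basal cells to the basement membrane, were uneven: the integrin subunits Itga6 and Itgb4 stood at 169 ± 4.52 and 47.3 ± 0.519 TPM, while Col17a1, its transmembrane collagen, had 0.163 ± 0.0216. Trp63, the master regulator of basal cells, had 0.164, 0.162 and 0.112 TPM and Acta2, smooth muscle actin, 0.243, 0.5999 and 0.529. Of the other smooth muscle genes, Tagln, an actin-binding protein, stood at 3.45 ± 0.215, while Cnn1, Mylk, Actg2, Myh11 and Lmod1 stayed under 1 TPM, with Cnn1 at 0.432 ± 0.112, Actg2 at 0.166 ± 0.0305 and Myh11 at 0.0602 ± 0.0203. Krt5, the usual partner of Krt14, was not analysed here.

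The libraries are from bulk cultures, so RNA of Krt14 and Krt18 in the same cells and a mixture of cells cannot be told apart, nor can fewer cells of a type and less RNA per cell. The promoters of Krt18 and Krt14 are shown because a luminal and a basal keratin were both abundant in these cultures and their promoters differ in CpG content. The sequences are the 250 bases before the annotated start, 5′ to 3′ on the gene's strand, from RefSeq with build GRCm38.p6, and the capitals mark CpG dinucleotides. Krt18, at chr15:102027966-102028215 on the plus strand, holds 12 CpG, and Krt14, at chr11:100206031-100206280 on the minus strand, holds 5. This is not a difference between luminal and basal keratins in general. The promoter of Krt8 holds 3 CpG, fewer than Krt14, and that of Krt7 holds 16.
Krt18: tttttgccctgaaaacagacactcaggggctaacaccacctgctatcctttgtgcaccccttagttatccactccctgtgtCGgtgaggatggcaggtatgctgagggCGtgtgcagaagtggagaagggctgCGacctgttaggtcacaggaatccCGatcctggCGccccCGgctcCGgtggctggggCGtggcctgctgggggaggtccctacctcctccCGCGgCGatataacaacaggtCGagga
Krt14: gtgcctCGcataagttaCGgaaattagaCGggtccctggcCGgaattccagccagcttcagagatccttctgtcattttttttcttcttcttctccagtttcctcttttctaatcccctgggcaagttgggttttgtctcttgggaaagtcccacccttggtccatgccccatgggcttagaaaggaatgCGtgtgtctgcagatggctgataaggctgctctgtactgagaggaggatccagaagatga

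Mesenchymal genes stood at very unequal levels in the same cultures. Of 37 listed genes, 29 had a row and 19 of these (65.5%) reached 1 TPM, beside 78.7% of all coding genes, and the median was 10.3, at percentile 39.7. S100a4, a calcium-binding protein of motile cells, stood at 2097, 2079 and 2097 TPM, with almost no spread. Vim, the intermediate filament vimentin, stood at 1013, 1084 and 1077, slightly below Krt18 in every library, by a log2 ratio of -0.26 ± 0.03. Before division by length, Vim was above Krt18, as given in the closing section. Fn1, fibronectin, stood at 419, 400.01 and 422 and Cd44, the hyaluronan receptor, at 259 ± 2.26 TPM. Sparc, a matrix-associated glycoprotein, stood at 171 ± 2.44.

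The transcription factors linked to the mesenchymal state did not stand together. Snai1 had 45.9, 46.7 and 43.5 TPM and Twist1 had 17.2, 17.7 and 18.7. Zeb2 had 10.3, 10.1 and 10.4, while its paralogue Zeb1 had 0.199, 0.0935 and 0.139 TPM. Both Zeb genes encode repressors of Cdh1 transcription, and Zeb1 was at 0.0140 ± 0.00503 of the Zeb2 level. Foxc1 and Foxc2, forkhead factors, stood at 44.05 ± 0.734 and 21.96 ± 1.04. Fibroblast collagens were low, with Col1a1 at 0.294 ± 0.0567 and Col1a2 at 0.178 ± 0.0452 TPM, as were Pdgfrb at 0.0265 ± 0.00313 and Prrx1 at 0.011 ± 0.0047. Cdh2, which encodes N-cadherin, was not analysed here.

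**Figure D2:**
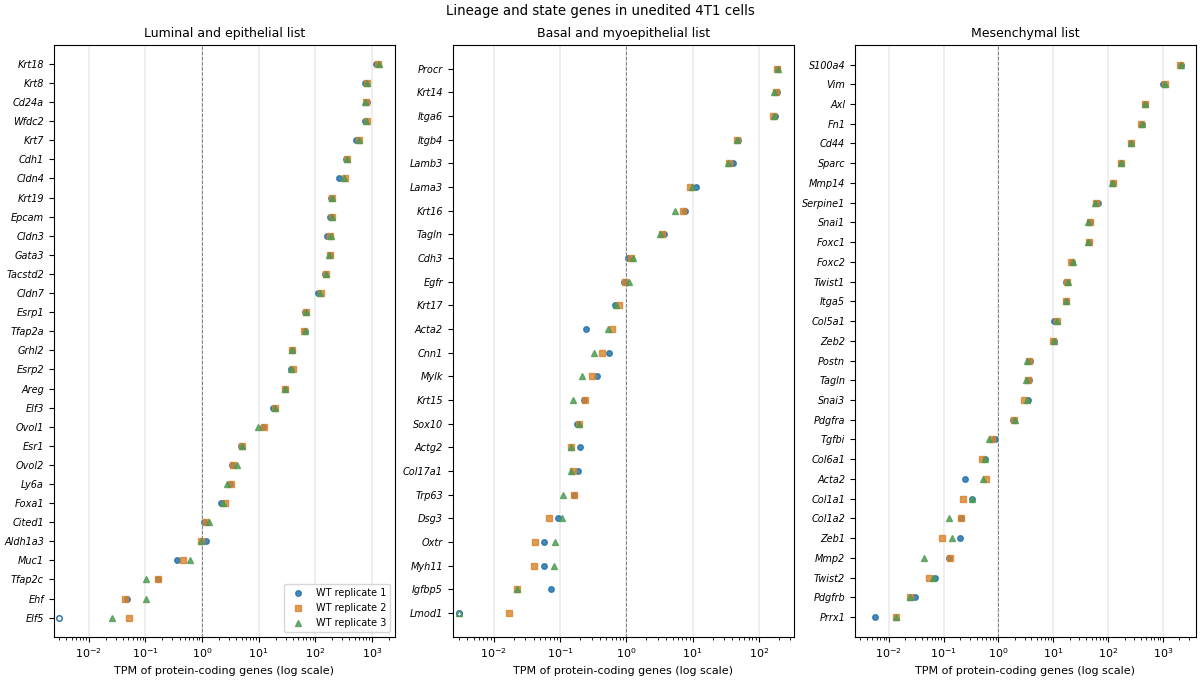
TPM (log scale) of measured genes of the luminal and epithelial, basal and myoepithelial (1 gene not drawn), and mesenchymal lists, ordered by mean, with a symbol for each WT replicate; the dashed line is 1 TPM and open symbols at the left edge are values under 0.003. Krt18, Vim and S100a4 stand near or above 1000 TPM in every library, while Trp63 and Zeb1 stay under 1.

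The labelled cell type, mammary tumour cells, was checked against markers of other cells. Krt8, Krt18, Cdh1 and Epcam were abundant, and markers of other cell types were at or near 0, with exceptions. For blood cells, 7 of 20 listed markers had a row and their summed level ranged over the libraries between 25.5 and 29.1 TPM. Ptprc, the pan-leukocyte antigen CD45, stood at 0.0107, 0.0132 and 0.0132, under its floor of 0.0397. Most of the sum came from Cd14, a lipopolysaccharide co-receptor, at 14.4 ± 0.792, and Cd68, a lysosomal glycoprotein, at 8.88 ± 1.39. Csf1r stood at 3.67, so 3 of the 7 blood markers (42.9%) reached 1 TPM, beside 78.7% of all coding genes. For endothelium, 7 of 12 markers had a row, with sums of 22.0 to 24.7 TPM; Egfl7 at 15.2 ± 1.78 and Flt1 at 8.29 ± 0.291 made up nearly all of it, and Pecam1 stood at 0.104 ± 0.0518. Fibroblast markers, 5 of 12 with a row, summed to between 2.36 and 2.51 TPM, most of it from Pdgfra at 1.90. Adipocyte markers, 5 of 10 with a row, summed to between 6.41 and 7.11, most of it from Lipe at 5.76. All 20 proliferation genes reached 1 TPM, beside 78.7% of all coding genes, and 17 (85%) reached 100, beside 13.5%. Their median was 208.6, and Pcna, the DNA polymerase clamp, and Mki67 stood at 525 ± 6.17 and 344 ± 14.6.

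Receptor tyrosine kinases were led by Axl, and 4 of the 36 measured (11.1%) reached 100 TPM, beside 13.5% of all coding genes. Of 55 listed receptor tyrosine kinases, 36 had a row and 27 (75%) reached 1 TPM, beside 78.7% of all coding genes. Axl, the receptor for the vitamin K-dependent ligand Gas6, led the list at 474, 477 and 470.3 TPM. The ephrin receptor Epha2 followed at 191, 199 and 195, then Ryk, a Wnt co-receptor, at 163, 164 and 161, and Met, the receptor for hepatocyte growth factor, at 134, 133 and 134. The ranges of these neighbours did not overlap, so this order was the same in every library. The ligand genes Gas6 and Hgf were not analysed here.

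The EGF receptor family was uneven. Erbb2 stood at 35.6, 35.9 and 34.6 TPM, Erbb3, which signals as its partner, at 10.98 ± 1.17 and Egfr at 0.938, 0.947 and 1.09. Egfr was at 0.0281 ± 0.00291 of the Erbb2 level, and its libraries lay on both sides of 1 TPM. Fgfr2, a fibroblast growth factor receptor of epithelia, stood at 33.3 ± 1.26 and Fgfr1 at 0.381 ± 0.0411. Igf1r and Insr, the receptors for insulin-like growth factor and insulin, stood at 28.4 ± 0.529 and 18.9 ± 0.195.

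Of 44 measured cytokine and TGF-beta superfamily receptors, 30 (68.2%) reached 1 TPM, beside 78.7% of all coding genes, and none reached 100, beside 13.5% of all coding genes. Tgfbr2, which binds TGF-beta first, stood at 57.4, 60.3 and 58.4 TPM and Tgfbr1, its signalling partner, at 24.4 ± 0.635. The BMP receptor Bmpr1a led at 70.9 ± 2.48. Of the interferon receptor chains, Ifnar1 stood at 45.99 ± 1.03, Ifngr1 at 29.9 ± 1.12 and Ifngr2 at 32.1 ± 0.937 TPM. Il6st, the shared signal transducer of the interleukin-6 family, stood at 39.5 ± 0.159, while Lifr, its partner for leukaemia inhibitory factor, had 0.0368 ± 0.0197 TPM. Cxcr4, the receptor for the chemokine Cxcl12, was listed at 0 in all 3 libraries, which allows up to 0.113 TPM at a floor of 3 reads, and Ackr3, the other receptor for that chemokine, stood at 30.6, 31.3 and 30.6.

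Of the nuclear receptors, 23 of 33 measured genes (69.7%) reached 1 TPM, against 78.7% of coding genes. Ppard, a fatty acid sensor, led at 85.5 ± 2.60, followed by Rarg, a retinoic acid receptor, at 63.1 ± 1.67. The orphan receptor Esrra was above Esr1 in every library, by 6.45 ± 0.0712-fold. Pparg, the adipocyte regulator, had 0.0231 ± 0.04003 TPM, and Pgr, the progesterone receptor, was not analysed here. Of 20 measured integrin subunits, 12 (60%) reached 1 TPM, below the 78.7% of coding genes, and no neighbours among these overlapped. Itgb1, the most widely shared beta subunit, stood at 857, 828 and 816 TPM and Itga3, which pairs with it to bind laminin, at 692, 709 and 699. Both were far above the next subunit, Itga6.

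Among cytokines and chemokines, 24 of 41 measured genes (58.5%) reached 1 TPM, beside 78.7% of all coding genes. Mif, macrophage migration inhibitory factor, led at 1176, 1347 and 1341 TPM, with replicate 1 the lowest. Tslp, an epithelial cytokine that acts on myeloid and type 2 immune cells, followed at 167, 159 and 151. Cxcl16, a membrane-bound chemokine, stood at 145 ± 2.90 and Csf1, the growth factor of macrophages, at 139.6, 129.97 and 126.

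Factors that act on neutrophils in the mouse stood at unequal levels. Cxcl5 stood at 82.7, 86.6 and 76.9 TPM and Cxcl1 at 74.4, 74.4 and 68.9; the ranges did not overlap. Csf3, granulocyte colony-stimulating factor, stood at 21.7, 23.95 and 23.2. Cxcl2, named outside the rule for named genes and after its values were seen, had 0.622, 0.438 and 0.688 TPM. Csf1 was above Csf3 by 5.76 ± 0.568-fold. Ccl2, a monocyte chemokine, stood at 24.3 ± 0.409 and Lif, of the interleukin-6 family, at 52.1 ± 1.39. Il23a, which encodes the p19 chain of interleukin-23, and Clcf1 stood at 67.03 ± 3.64 and 62.7 ± 5.48, with overlapping ranges. Il1b had 0.324, 0.25 and 0.0496 TPM, with its libraries far apart, and Il25 was listed at 0 in all 3 libraries. Il6 and Tnf were not analysed here.

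Growth factors were led by Hdgf, Ccn1 and Ccn2. Of 55 measured genes, 34 (61.8%) reached 1 TPM, against 78.7% of coding genes. Hdgf, a heparin-binding nuclear and secreted protein, stood at 885, 880.2 and 887 TPM. Ccn1 and Ccn2, matricellular proteins that bind integrins, stood at 318 ± 4.47 and 254 ± 9.69. The EGF receptor ligands Hbegf and Tgfa stood at 129, 129 and 126 and at 62.8, 62.98 and 62.6, both far above the level of Egfr itself. Pdgfb, a platelet-derived growth factor chain, stood at 122 ± 2.82, while its receptor Pdgfrb was at 0.0265 ± 0.00313 TPM. The Wnt ligands Wnt7a and Wnt7b stood at 94.98 ± 1.40 and 88.4 ± 3.83. Tgfb1 was above Tgfb2 by 15.3 ± 0.929-fold, and Vegfa, the main angiogenic factor, stood at 9.98, 9.41 and 9.44, close to Vegfc at 7.15 ± 0.28.

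**Figure D3:**
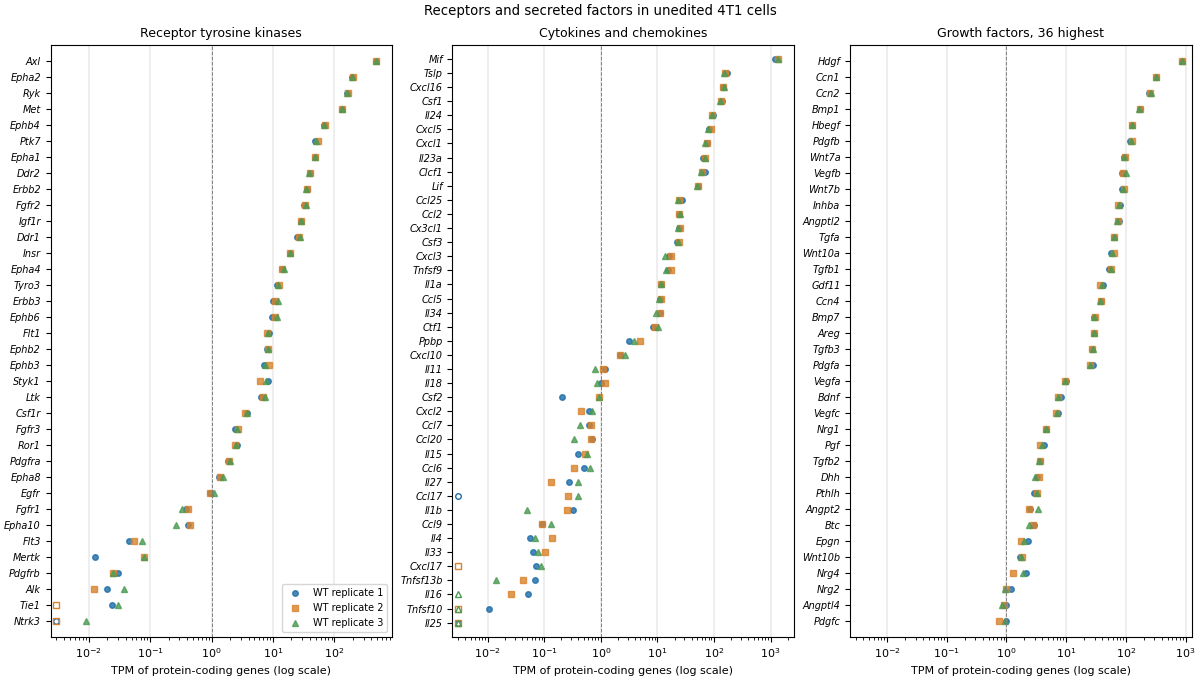
TPM (log scale) of the measured receptor tyrosine kinases, cytokines and chemokines, and the 36 highest growth factors, with a symbol for each WT replicate; the dashed line is 1 TPM and open symbols at the left edge are values under 0.003. Axl, Mif and Hdgf lead their lists in every library, and symbols spread apart only at low levels.

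Secreted and matrix genes included some of the highest levels. Of 50 listed genes, 46 had a row, 39 of these (84.8%) reached 1 TPM, against 78.7% of coding genes, and 21 reached 100, beside 13.5% of all coding genes at that level. Their median was 78.1, at percentile 82.2. Thbs1, the matricellular protein thrombospondin-1, stood at 696, 704 and 699 TPM. Mmp9, the gelatinase linked to invasion, stood at 315, 306 and 298 and Plau, urokinase plasminogen activator, at 215, 242 and 242. Mmp2, the other gelatinase, had 0.1003 ± 0.0491 TPM. Spp1, osteopontin, stood at 194, 228 and 227, with replicate 1 below the others, and the protease inhibitors Timp2 and Timp1 at 275 ± 8.30 and 173 ± 4.45. Igfbp4 and Igfbp7, which bind insulin-like growth factors, stood at 325 ± 7.36 and 286 ± 5.95. Lcn2, an iron-siderophore carrier, had 0.601, 0.667 and 1.18 TPM.

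Antigen presentation genes were present at unequal levels. B2m, the light chain of MHC class I, stood at 727, 749 and 763 TPM and the heavy chains H2-D1 and H2-K1 at 193 ± 7.09 and 149 ± 7.56; class I heavy chains are similar in sequence and can share reads. Tapbp, which loads peptides, stood at 119 ± 3.17. The peptide transporter genes Tap1 and Tap2 stood at 0.828, 1.38 and 1.09 and at 2.91, 4.10 and 3.50 TPM, and the immunoproteasome subunits Psmb9 and Psmb8 at 0.931 ± 0.233 and 5.01 ± 0.309. Cd274, which encodes the checkpoint ligand PD-L1, stood at 1.54, 1.31 and 1.48, while Cd276, a related B7 protein, stood at 102 ± 3.67 and Cd47, the signal that inhibits phagocytosis, at 83.5 ± 0.679. The class II genes H2-Ab1 and Ciita stood at 0.0824 ± 0.0724 and 0.0756 ± 0.023.

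At several steps of glycolysis 1 isoenzyme gene had most of the transcript level. Of 30 measured genes, 25 (83.3%) reached 1 TPM, against 78.7% of coding genes, and the median was 46.1. Pkm, the last step to pyruvate, stood at 3651, 3853 and 3803 TPM. Ldha, which reduces pyruvate to lactate, stood at 1388, 1495 and 1478, against 1.47, 1.12 and 1.75 for Ldhb, a ratio of 1038 ± 258. Aldoa stood at 1284 ± 64.3, against 4.60 ± 0.976 for Aldoc, and Pfkl, the leading phosphofructokinase, at 176 ± 7.41, against 24.7 ± 1.59 for Pfkp. Gapdh and Pgam1 stood at 1201 ± 54.4 and 1188 ± 45.2, with overlapping ranges. Eno1, an enolase, stood at 756 ± 26.9, and Eno1b, a near copy on another chromosome, was listed at 2849 ± 78.9, so the split of enolase reads between them is uncertain.

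The transporters at either end of the pathway were as uneven. Slc2a1, the glucose transporter GLUT1, stood at 62.99, 69.2 and 70.2 TPM, while Slc2a3, GLUT3, had 0.0139, 0 and 0.051, with no library above its floor of 3 reads, 0.0514 TPM. Slc16a1, the lactate carrier MCT1, stood at 148, 151 and 146, against 0.668, 1.12 and 0.833 for Slc16a3, the carrier MCT4. Hexokinases 1 and 2 were near each other, with Hk1 at 82.97 ± 2.01 and Hk2 at 71.1 ± 2.40, and their order turned round with the length used.

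Of 25 measured genes of pyruvate entry and the citric acid cycle, 24 (96%) reached 1 TPM, beside 78.7% of all coding genes. At 100 TPM there were 16 (64%), beside 13.5% of all coding genes. The median of the list was 146.3, at percentile 91.3. Mdh2, mitochondrial malate dehydrogenase, stood at 454, 482 and 479 TPM and Cs, citrate synthase, at 399, 423 and 415. Ogdhl, a paralogue of the oxoglutarate dehydrogenase subunit Ogdh, had 0.569 ± 0.146. Of 10 measured pentose phosphate genes, 9 (90%) reached 1 TPM, beside 78.7% of all coding genes. Tkt, transketolase, led them at 371 ± 20.2, followed by Pgd at 273 ± 7.17. Gluconeogenesis had 3 of 7 genes with a row, and Pcx, pyruvate carboxylase, stood at 2.10 ± 0.349.

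**Figure D4:**
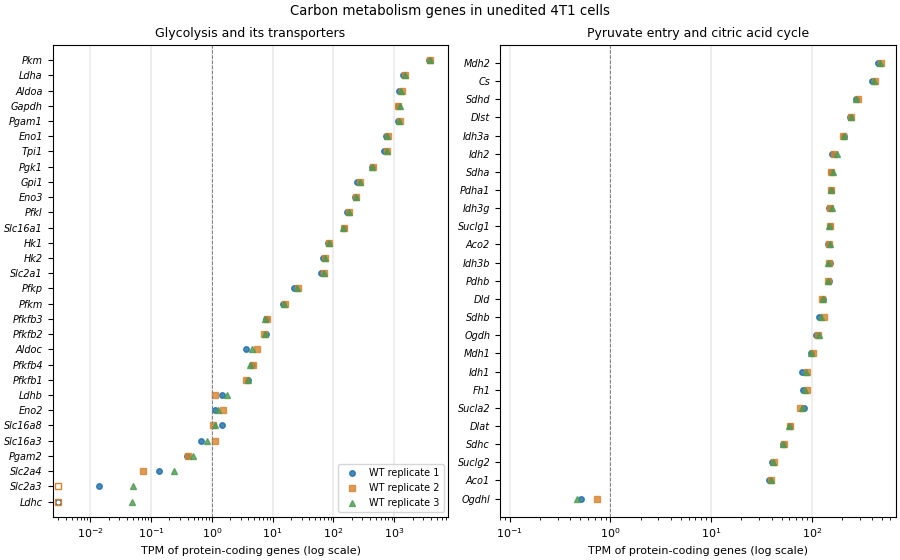
TPM (log scale) of the measured genes of glycolysis with its transporters (left) and of pyruvate entry and the citric acid cycle (right), with a symbol for each WT replicate; the dashed line is 1 TPM and open symbols at the left edge are values under 0.003. Glycolytic isoenzymes spread from Pkm to Ldhc, while Ogdhl alone of the citric acid cycle genes has a mean under 1 TPM.

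The amino acid list held enzymes of synthesis and breakdown and transporters. Of its 40 measured genes, 36 (90%) reached 1 TPM, beside 78.7% of all coding genes. Odc1, which makes the polyamine precursor putrescine, stood at 749, 766 and 776 TPM. The serine synthesis enzymes Psat1 and Phgdh stood at 437, 466 and 459 and at 218, 223 and 225, and mitochondrial Shmt2, which splits serine for one-carbon units, was 10.04 ± 0.325-fold above its cytosolic paralogue Shmt1. Slc7a11, the cystine carrier, stood at 2.58 ± 0.121 and Nos2, inducible nitric oxide synthase, at 0.0842 ± 0.0357.

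Of 33 measured lipid genes, from synthesis to oxidation and lipolysis, 30 (90.9%) reached 1 TPM, against 78.7% of coding genes. Scd2, a stearoyl-CoA desaturase, stood at 898, 1099.95 and 1145 TPM, with replicate 1 the lowest. Scd1, the paralogue that dominates in adult mouse liver, stood at 66.97, 81.05 and 85.6, again with replicate 1 the lowest, and the ratio of Scd1 to Scd2 was nearly constant at 0.0743 ± 0.000565. Fasn, fatty acid synthase, stood at 316, 341 and 352 and Acly, which supplies cytosolic acetyl-CoA, at 235 ± 10.4. Acaca was above Acacb by 92.6 ± 4.35-fold. Cpt1a, which admits fatty acids to mitochondria for oxidation, stood at 7.41 ± 0.287, above Cpt1c by 7.36 ± 1.05-fold.

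Nucleotide salvage was measured in full, with 17 of 19 genes (89.5%) at 1 TPM, against 78.7% of coding genes. 4T1 cells were derived as a thioguanine-resistant line, and Hprt, the enzyme that activates thioguanine, had a transcript level of 176, 163 and 164 TPM. Transcript level does not report enzyme activity. Aprt, the adenine counterpart, stood at 357 ± 11.9 and Tk1, thymidine kinase, at 340.2 ± 13.2. Mtap, which recycles methylthioadenosine, led the list at 640.2, 644 and 645 TPM.

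Most tumour suppressor genes with a row were expressed. Of 90 listed genes, 79 had a row, 73 of these (92.4%) reached 1 TPM, beside 78.7% of coding genes, and the median was 32.1, at percentile 62.9. After Cdh1 came Igfbp7 at 286 ± 5.95 TPM, and Cbfb, a subunit of core-binding factor, at 181 ± 1.58. Smarca4, a chromatin remodelling ATPase, stood at 178 ± 4.96, and its range overlapped those of its neighbours Cbfb and Gata3. Prkar1a, a regulatory subunit of protein kinase A, and the remodelling subunit Smarcb1 followed at 164 ± 2.67 and 143 ± 2.89. Rb1, the retinoblastoma protein gene, was low among the expressed genes at 4.37, 4.06 and 4.53. Trp53 and its target Cdkn1a lie outside the rule for named genes and were chosen after their values were seen; they stood at 59.2, 63.5 and 60.7 and at 13.01, 12.4 and 11.1 TPM. The table gives levels, not sequence, so no mutation can be read from them.

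The remaining 6 measured suppressors stayed under 1 TPM, and none of them was listed at 0 in all 3 libraries. Cadm1, a cell adhesion molecule, had 1.03, 0.907 and 0.795 TPM, with replicate 1 above 1 and the others below it. Dapk1, a calmodulin-dependent death kinase, had 0.879, 0.868 and 0.827 and Dlc1, a GTPase-activating protein, 0.565, 0.553 and 0.589. Ndrg2, a differentiation-linked gene, had 0.637, 0.597 and 0.593. Plagl1, an imprinted zinc finger factor, had 0.153, 0.0756 and 0.15 and Hic1, a transcriptional repressor, 0.0314, 0.0194 and 0.077, around its floor of 0.0582. Dapk1, Dlc1, Ndrg2 and Cadm1 rest on few normalized counts per library, as with Dapk1 at 85.7, 84.4 and 79.99. The other 11 listed genes, among them Cdkn2a, Cdkn2b, Fhit and Runx3, had no row with an exonic length and could not be given a level.

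The promoters of Dapk1 and Plagl1 are shown because these low genes have more CpG than the median of 7 in their level range, and both were chosen after their values were seen. As for the keratins, the 250 bases before the start come from RefSeq with build GRCm38.p6, run 5′ to 3′ on the gene's strand, and capitals mark CpG. Dapk1, at chr13:60601961-60602210 on the plus strand, holds 33 CpG, and Plagl1, at chr10:13090582-13090831 on the plus strand, holds 19. Their methylation was not measured.
Dapk1: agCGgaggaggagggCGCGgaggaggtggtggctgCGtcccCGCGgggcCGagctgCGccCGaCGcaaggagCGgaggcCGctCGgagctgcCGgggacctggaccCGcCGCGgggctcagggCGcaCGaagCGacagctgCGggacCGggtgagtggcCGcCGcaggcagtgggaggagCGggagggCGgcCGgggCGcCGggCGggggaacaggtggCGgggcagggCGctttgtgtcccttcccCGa
Plagl1: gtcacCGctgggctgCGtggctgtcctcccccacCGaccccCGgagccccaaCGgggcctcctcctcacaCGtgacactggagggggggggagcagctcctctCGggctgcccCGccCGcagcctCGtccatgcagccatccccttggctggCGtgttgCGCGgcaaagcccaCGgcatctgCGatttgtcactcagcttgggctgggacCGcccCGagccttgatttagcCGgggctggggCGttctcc

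**Figure D5:**
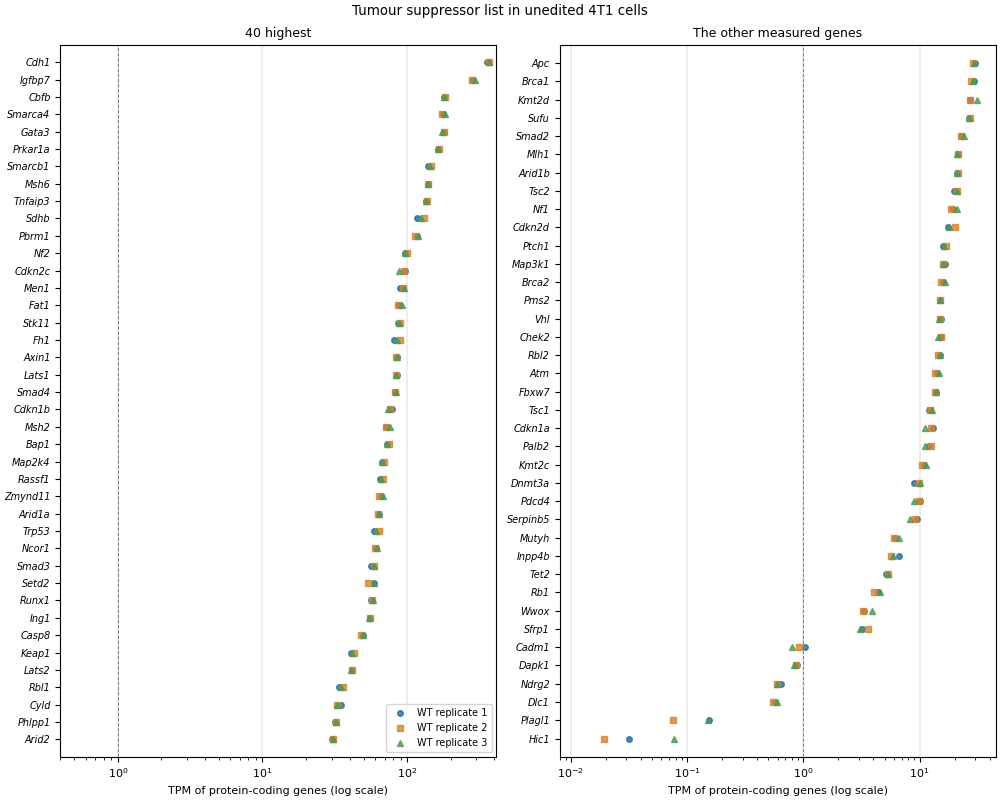
TPM (log scale) of measured tumour suppressor genes, 1 of which is not drawn, with the 40 highest on the left and the others on the right, and a symbol for each WT replicate; the dashed line is 1 TPM. The 6 genes under 1 TPM are Cadm1, Dapk1, Ndrg2, Dlc1, Plagl1 and Hic1.

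Of the listed growth-promoting genes, 44 of 46 measured (95.7%) reached 1 TPM, beside 78.7% of all coding genes, with a median of 64.3. Ccnd1, cyclin D1, stood at 1045, 1057 and 1022 TPM, above Ccnd2 by 14.3 ± 0.319-fold. Cdk4, its kinase partner, was above Cdk6 by 8.94 ± 0.304-fold, at 589.97, 616 and 612. Myc, the growth-promoting transcription factor, stood at 666, 696 and 721 TPM. Hmga2, an architectural factor of embryonic tissue, stood at 197, 192 and 198, and the fetal RNA-binding protein Igf2bp1 was above Igf2bp3 by 46.6 ± 6.09-fold. Hmga1 stood at 463 ± 14.01, but a near copy, Hmga1b, was listed at 2101 ± 47.2, so its reads may be split.

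The 3 libraries were close to each other, but differed by more than the sampling of reads alone gives. Over genes at 10 TPM or more, the median chi-square per gene (1 df) was 1.58 between replicates 1 and 2. It was 1.31 between replicates 1 and 3 and 0.919 between replicates 2 and 3, beside 0.455 from sampling alone. These medians are descriptive. Among the 8356 coding genes at 10 TPM or more, the median SD of log2(value + 1) was 0.04 and the 95th percentile was 0.11, and 15 genes had an SD above 0.25. Lars2, mitochondrial leucyl-tRNA synthetase, was among the most variable, with 59196, 43792 and 21947 normalized counts. Rn18s had the same order, with 2205020, 1455110 and 997888 normalized counts; the part of residual ribosomal RNA in the Lars2 values was not tested. Id2, an inhibitor of helix-loop-helix factors, had 1170.3, 741 and 638 normalized counts. Its paralogue Id1, which is outside the 10 most variable genes and was named after its values were seen, had 1989.5, 1569 and 1353. Both were highest in replicate 1 and lowest in replicate 3. Of the 10 most variable genes, H2ac19 and H4c17 are histone genes, and Gm49450, Gm14296, Gm10800 and Gm43951 are predicted genes. With 3 libraries of 1 line, this spread does not separate differences between cultures from technical ones.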

How the data were processed

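The authors deposited gene counts scaled by 1 factor per library, a signal unit labelled as Partek normalized counts; cutadapt, STAR, Partek and the build mm10 are named per the submitters' processing notes. The sources used here give no version, counter or annotation. Some values are not whole multiples of 1 read, such as 116.27 for Pet117 in replicate 1, where 1 read stands for 0.902. Counts can thus hold fractions of reads, and the estimated reads and floors are approximate. Only the 3 columns labelled WT were used, and the labels call them biological replicates. Where nothing shows separate passages, spread between them may be partly technical.

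The deposited gene length equals stop minus start in all 22469 rows, so it includes introns, with a median of 22442 bases for coding genes against 3216 exonic bases. Values were therefore divided by exonic length from the GENCODE M21 basic set, a change from the planned division, and scaled so that 13755 coding genes sum to 1000000 per library, a TPM scale. Coordinates in the table differ from GRCm38 for genes such as Krt18, so the table's coordinates are not printed. Rows without an exonic length, 177 in all, were left out of levels; they held between 5.53% and 7.66% of a library's normalized counts. The normalized counts that 1 read stands for were taken as the commonest nonzero value under 1.5 in each library. Totals divided by that value gave 55551245, 44282400 and 44310077 reads. Floors of 3 reads cover counting error only, and PCR duplicates are not separable.

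No test was run, since there is 1 group. The 29 gene lists (947 different genes, 716 with a row and an exonic length) and 35 pairs (31 measured) were chosen with earlier results of these data known. Named genes are the 20 most abundant coding genes, up to 12 highest and 12 lowest of each list, every pair and the 10 most variable genes at 10 TPM or more; some genes that this rule names, and 2 further pairs, are not reported here. Alternatives varied threshold, scaling, length and libraries. Scripts were tested on simulated data and ran in Python 3.11.15 with pandas 2.3.3, numpy 2.4.6 and matplotlib 3.10.9.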

Additional observations from a re-analysis of the deposited data

How the results depend on the processing

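The count of 10825 expressed coding genes was 11346 at a threshold of 0.5 TPM, 9453 at 5, and 10615 when all genes were scaled to 1000000. Leaving out each replicate gave 10815 to 10825 expressed genes, 578 to 580 list members at 1 TPM (580 with all), 12 list medians above the coding median in every case, 22 pairs with the first gene higher in every case, coding shares of 83.4% to 84.5% and a median spread of 0.03 to 0.04 on the log2 scale. The coding share of counts was 86.6% without Rn18s and 71.5% after division by length. The divided share leaves out the rows without an exonic length, Rn18s among them, so it covers a different set of genes. Of the 20 most abundant genes, 11 stayed without division by length and 13 with the deposited span as length. Without division by length, the log2 ratio turned to 0.35 for Vim over Krt18. With the deposited span it turned to -1.16 for Hk1 over Hk2 and -2.06 for Esrp1 over Esrp2. With all exons of the comprehensive annotation it turned to -0.50 for Hk1 over Hk2 and -0.81 for Pfkp over Pfkm. Each turn follows from the lengths divided by. The sizes depended on length as well. Without division by length, the percentile of the median moved by more than its SD over libraries in 25 of the 29 lists. It moved in 25 with the span and in 23 with the comprehensive exons. Log2 ratios kept their sign but moved by more than their SD in 26, 28 and 20 of the 31 pairs, in the same order. The SDs given with levels and ratios do not include this. The span and comprehensive exons were chosen after seeing the data, as was leaving out replicates for the spread. Genes near the floor of 3 reads cannot be ordered at this depth. No paired analysis was possible because the results come from 1 group and no test.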

Other observations

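Noncoding and imprinted genes add values outside the groups above. All 17 measured genes of the noncoding list reached 1 TPM on the scale set by coding genes, beside 78.7% of all coding genes. The share over all noncoding genes was not computed. Rmrp, the RNA of the RNase MRP ribonucleoprotein, had 18205, 20057 and 20275 TPM and Rpph1, the RNA of RNase P, 5137, 6198 and 6254; both are short RNAs, so few bases divide their counts. Malat1, a nuclear long noncoding RNA of speckles, stood at 1088, 1027 and 1019.8 and Neat1, the RNA scaffold of paraspeckles, at 19.5, 18.8 and 18.8. Gas5 and Snhg1, hosts of small nucleolar RNAs, stood at 482 ± 31.9 and 371 ± 24.00.

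Of 24 imprinted genes, 12 had a row and 9 of these (75%) reached 1 TPM, beside 78.7% of all coding genes. The imprinted list also holds noncoding genes, such as H19 and Mirg. Gnas, which encodes a G protein alpha subunit, stood at 181, 180.5 and 179.98 TPM and Igf2r, the paternally silenced receptor that clears Igf2 in the mouse, at 52.97, 55.3 and 55.3. H19, the noncoding RNA next to Igf2, had 1.49, 1.31 and 1.24 TPM, and Mirg, a noncoding RNA of the Dlk1 and Meg3 cluster, was listed at 0 in all 3 libraries. Igf2 was not analysed here. Xist, the RNA that coats the inactive X chromosome, had 0.0521, 0.0441 and 0.0393 TPM, and the Y-linked gene Kdm5d had 0, 0.0158 and 0.0157, with all 3 values under its floor of 0.0237.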
